A study of Homo sapiens with 7 samples.

Results

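The genes described here are 10 components of bone morphogenetic protein (BMP) and activin signaling: the ligand genes BMP2, BMP4, BMP7 and INHBA, the target genes ID1, ID2, ID3 and ID4, and the inhibitory SMAD genes SMAD6 and SMAD7. They were chosen by name, with earlier results of these data known, and all 10 were found among the 19978 genes of the deposited table. RNA was sequenced from HEK-293, an established human embryonic kidney cell line, after 48 h in culture. Control cells (2 samples) were kept with DMSO, the vehicle, at pH 7.4, and acidosis cells (3 samples) with DMSO in acidified medium of pH 6.6. SRPIN340 cells (2 samples) were kept in medium of pH 7.4 with DMSO and 10 µM of SRPIN340. This compound inhibits the kinases that phosphorylate SR splicing factors. The study set acidosis beside the kinase inhibitor to ask how far the response to acid resembled that to loss of SR protein phosphorylation.

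BMPs and activins are secreted dimers of the TGF-beta superfamily that bind pairs of type I and type II receptor kinases. BMP receptors phosphorylate SMAD1, SMAD5 and SMAD9, activin and TGF-beta receptors phosphorylate SMAD2 and SMAD3, and both sets enter the nucleus with SMAD4. The ID genes are classic direct targets of the BMP branch, and their products bind E proteins and keep them off DNA. SMAD6 and SMAD7 are induced by the pathway and act as feedback inhibitors, SMAD6 mainly on the BMP branch and SMAD7 on both. In embryonic kidney, BMP7 and BMP4 take part in growth of the nephron progenitors and branching of the ureteric bud.

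Library totals lay between 21788457 and 24110460 estimated counts in the control and SRPIN340 samples and between 13615816 and 21370143 in acidosis. The 100 most counted genes took up 15.2% to 15.4% of the former libraries and 24.1% to 24.8% of the acidosis libraries. Levels are given as CPM, which are counts relative to a library total scaled by TMM, a method that sets the bulk of genes level between samples. Of all genes, 14863 passed the expression filter, among them all 10 described here. Calls required an adjusted p (Benjamini-Hochberg, over these genes) under 0.05 together with an absolute log2 fold change over 1 (edgeR's quasi-likelihood test, all 7 samples in 1 fit). HEK-293 markers were expressed, 12 of 12 passing the filter, with a summed level of 1743 to 1813 CPM at pH 7.4 and 3904 to 3928 CPM in acidosis. Summed markers of fibroblasts lay at 42.4 to 54 CPM and 81.4 to 93.4 CPM in acidosis, and those of endothelium at 4.46 to 6.91 CPM and 1.03 to 2.67 CPM. The fibroblast sum was carried by COL1A1 (30.85 and 62.34 CPM in control and acidosis) and LUM (7.714 and 24.45 CPM), whereas PDGFRA went from 3.826 to 0.9708 CPM, and COL1A2 and DCN did not pass the filter. The part of these markers in the results was not tested. In bulk RNA, fewer cells expressing a gene and less RNA of it per cell cannot be told apart.

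In acidosis, INHBA, ID1, ID3, ID4 and SMAD7 were called higher than in the control and BMP4 was called lower. BMP2 and ID2 also rose by the adjusted p, at changes under the fold limit, and BMP7 and SMAD6 did not pass it. Thus 5 of 10 genes were called higher and 1 of 10 lower, where 14.4% and 19.1% of all tested genes were called in these directions. Since the genes were chosen with earlier results of these data known, the excess of higher calls is a description and not a test. The adjusted p alone was passed by 8 of 10 genes and by 66.7% of all tested genes, a background close to the share of the 10 genes. The median log2 fold change was 0.995 over the 10 genes and -0.052 over all genes tested. In 8 of the 10 genes the acidosis samples did not overlap the control samples, the exceptions being BMP7 and SMAD6. Of all tested genes, 76.5% did not overlap between these groups, so this count too was close to the background.

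**Figure D1:**
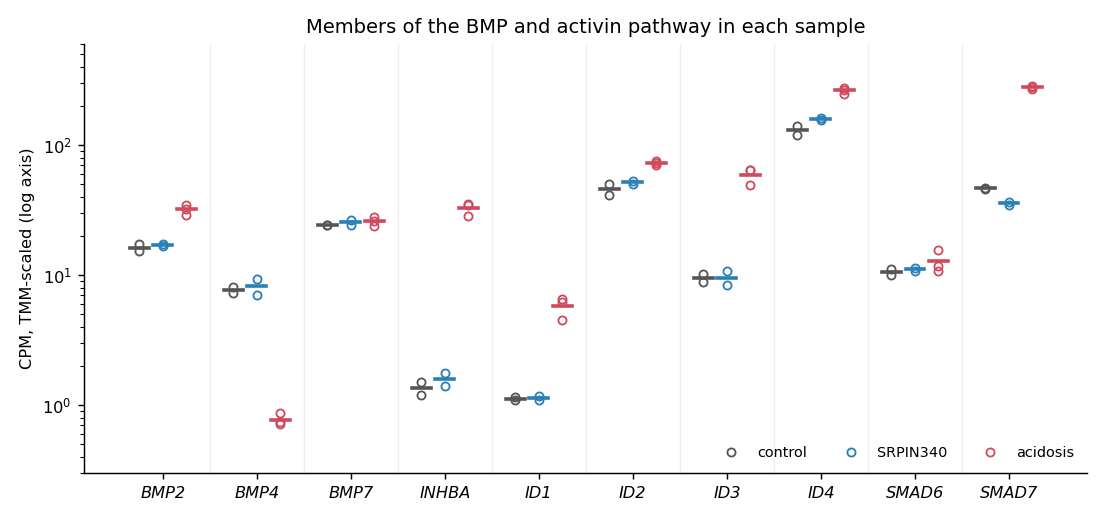
Level of the 10 genes in each sample, in TMM-scaled CPM on a log axis, with 1 point per sample and a bar at the group mean. INHBA, ID1, ID3 and SMAD7 stand higher in the 3 acidosis samples, BMP4 stands lower, and BMP7 and SMAD6 overlap between the groups.

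Among the ligands, the 3 BMP genes moved in different ways. BMP2 (ENSG00000125845.7, GRCh38 chr20:6767686-6780246, plus strand), whose product drives bone and cartilage formation, had 17.26 and 15.24 CPM in the control samples and 29.22, 34.7 and 32.24 CPM in acidosis. All 3 acidosis samples were above both control samples. The log2 fold change was 0.98 (95% interval 0.69 to 1.27, adjusted p = 9.23e-05 by edgeR), a 1.97-fold rise that lay just under the fold limit. It was 0.4 with total count only (adjusted p = 0.0177), and without control replicate 2 it was 0.87. It passed the limit with DESeq2, with RLE scaling, and without control replicate 1 (1.06) or acidosis replicate 1 (1.04).

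BMP4 (ENSG00000125378.16, chr14:53949736-53958761, minus strand) encodes the ligand that patterns ventral mesoderm and the ureteric bud. Its level was 7.31 and 8.07 CPM in the control samples and 0.713, 0.735 and 0.86 CPM in acidosis. Every acidosis sample lay far below every control sample, although the acidosis values rested on only 11.6, 8.1 and 9.5 estimated counts against 202.9 and 229.8 in the controls. The log2 fold change was -3.32 (95% interval -3.9 to -2.74, adjusted p = 2.56e-06 by edgeR), a 10-fold fall, and the fall was called in every alternative setting.

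BMP7 (ENSG00000101144.13, chr20:57168753-57266641, minus strand), a ligand needed for nephron formation, had 24.28 and 24.29 CPM in the control samples and 25.89, 27.82 and 23.82 CPM in acidosis. The groups overlapped, and the log2 fold change of 0.09 had a 95% interval of -0.17 to 0.35 (adjusted p = 0.518 by edgeR). When libraries were scaled by their total count only, the median of all genes moved to -0.63 and BMP7 stood at -0.48 with an adjusted p of 0.00429, so the sign of this gene depended on the scaling.

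INHBA (ENSG00000122641.11, chr7:41667168-41705834, minus strand) encodes the inhibin beta A chain, which pairs with itself to form activin A. It was the lowest of the 10 genes per transcript length in the controls, at 1.51 and 1.19 CPM. In acidosis it reached 34.74, 35.26 and 28.55 CPM, without overlap. The log2 fold change of 4.6 (95% interval 4.12 to 5.07, adjusted p = 9.79e-08 by edgeR) was a 24.2-fold rise and the widest change among the 10 genes. Exons of long noncoding RNAs on the opposite strand overlap INHBA (INHBA-AS1), BMP4 (ENSG00000287156) and ID2 (ID2-AS1), and no source used here says whether counting used strand, so reads of these pairs may not be told apart.

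The make-up of the BMP ligands shifted with these changes. Per kilobase of the canonical transcript, BMP4 held 27.3% ± 2.14 (SD, n = 2) of the summed BMP2, BMP4 and BMP7 level in the control and 2.52% ± 0.332 (n = 3) in acidosis. BMP2 went from 31.4% ± 2.5 to 57% ± 2.05, and BMP7 stayed at 41.4% ± 0.36 and 40.5% ± 2.24. Ratios between genes of the same sample do not depend on how libraries are scaled. The log2 ratio of BMP2 to BMP4 counts was 1.08 on average in the control and 5.42 in acidosis, and that of INHBA to BMP4 went from -2.52 to 5.45. All acidosis samples lay above all control samples in both ratios, for which an exact two-sided permutation test gave p = 0.1, the smallest value that 3 samples against 2 allow.

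**Figure D2:**
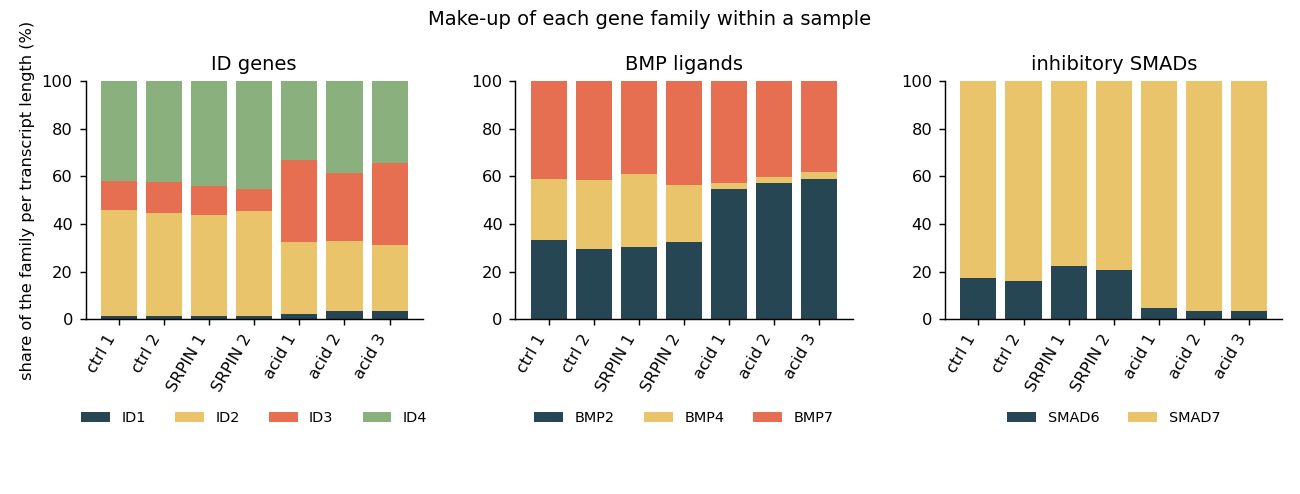
Share of each gene in the summed level of its family, per kilobase of canonical transcript, in each of the 7 samples (percent; ctrl, control; SRPIN, SRPIN340; acid, acidosis). BMP4 nearly vanishes from the BMP ligands in acidosis, ID3 widens among the ID genes, and SMAD6 narrows beside SMAD7.

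Of the 4 ID genes, those least expressed at pH 7.4 changed most. ID1 (ENSG00000125968.9, chr20:31605283-31606515, plus strand) is the ID gene most often used as a readout of BMP signaling. It had 1.15 and 1.09 CPM in the control samples, from 32 and 30.8 estimated counts, and 4.51, 6.15 and 6.54 CPM in acidosis. The groups did not overlap, and the log2 fold change was 2.34 (95% interval 1.61 to 3.08, adjusted p = 0.00014 by edgeR). This 5.08-fold rise had the widest interval of the ID genes.

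ID3 (ENSG00000117318.9, chr1:23557926-23559501, minus strand), a further BMP target that restrains differentiation of several lineages, had 10.12 and 8.88 CPM in the control samples. It stood at 63.78, 49.12 and 64.57 CPM in acidosis, well clear of the controls. The log2 fold change was 2.64 (95% interval 2.25 to 3.02, adjusted p = 7.89e-07 by edgeR), or 6.23-fold.

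ID4 (ENSG00000172201.12, chr6:19837370-19842197, plus strand), best known from neural and mammary progenitors, was the ID gene with the most counts. It measured 141 and 120.5 CPM in the control samples and 249, 275.2 and 266.7 CPM in acidosis. Its log2 fold change of 1.01 (95% interval 0.82 to 1.2, adjusted p = 4.25e-06 by edgeR) lay just over the fold limit. With total count only it was 0.44, with an adjusted p of 0.00101, and was not called. It also fell under the limit without control replicate 2 (0.88) or acidosis replicate 2 (0.98).

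ID2 (ENSG00000115738.10, chr2:8678845-8684461, plus strand), a regulator of lymphoid and neural cell fate, had 50.11 and 41.14 CPM in the control samples and 75.54, 69.96 and 72.48 CPM in acidosis. The groups did not overlap, and the log2 fold change was 0.67 (95% interval 0.44 to 0.91, adjusted p = 0.000293 by edgeR). With total count only this fell to 0.1 with an adjusted p of 0.407, whereas it was 0.7 with RLE scaling (adjusted p = 0.000262) and with DESeq2 (adjusted p = 3.23e-08).

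Within a sample, the ID genes changed places. ID2 and ID4 made up 43.8% ± 0.848 and 42.2% ± 0.39 (SD, n = 2) of the summed ID level per kilobase in the control, with ID3 at 12.5% ± 0.345 and ID1 at 1.43% ± 0.113. In acidosis ID3 held 32.3% ± 3.51 (n = 3), ID4 35.5% ± 2.99, ID2 29.1% ± 1.01 and ID1 3.04% ± 0.587. The log2 ratio of ID3 to ID4 counts went from -3.78 to -2.17 and that of ID1 to ID4 from -6.87 to -5.54, each without overlap (exact two-sided permutation p = 0.1, the smallest possible). The log2 ratio of ID2 to ID4 was -1.49 and -1.55 in the control samples and -1.72, -1.98 and -1.88 in acidosis, also without overlap (exact permutation p = 0.2).

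Upstream sequences are shown for ID1, ID3, ID4 and INHBA, the genes called higher in acidosis that have 1 RefSeq promoter window each, because SMADs act on DNA near their target genes. SMAD7, with 3 windows, is shown further on by a single site. The RefSeq promoter table (GRCh38.p14) held 12 windows for 8 of the 10 genes, BMP2 and BMP7 having no entry. Of each window, the 250 bases before the start site are printed 5′ to 3′ on the gene's strand, with matches to any searched motif in capitals. ID1 is at chr20:31605039-31605288, ID3 at chr1:23559502-23559751, ID4 at chr6:19837120-19837369 and INHBA at chr7:41703091-41703340.

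ID1: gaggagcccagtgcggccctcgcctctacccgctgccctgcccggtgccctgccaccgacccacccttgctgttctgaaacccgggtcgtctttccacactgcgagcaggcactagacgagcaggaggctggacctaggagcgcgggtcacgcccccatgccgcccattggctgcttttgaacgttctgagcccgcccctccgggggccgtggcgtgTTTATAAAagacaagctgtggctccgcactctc

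ID3: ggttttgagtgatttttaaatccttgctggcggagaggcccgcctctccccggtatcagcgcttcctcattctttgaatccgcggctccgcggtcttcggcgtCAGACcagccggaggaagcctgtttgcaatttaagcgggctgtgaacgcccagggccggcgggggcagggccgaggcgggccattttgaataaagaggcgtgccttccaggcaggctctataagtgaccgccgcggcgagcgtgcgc

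ID4: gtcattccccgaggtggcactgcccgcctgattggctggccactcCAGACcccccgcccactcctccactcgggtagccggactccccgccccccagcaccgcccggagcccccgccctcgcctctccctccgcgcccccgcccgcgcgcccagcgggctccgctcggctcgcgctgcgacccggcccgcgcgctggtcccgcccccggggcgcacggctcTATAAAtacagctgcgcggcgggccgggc

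INHBA: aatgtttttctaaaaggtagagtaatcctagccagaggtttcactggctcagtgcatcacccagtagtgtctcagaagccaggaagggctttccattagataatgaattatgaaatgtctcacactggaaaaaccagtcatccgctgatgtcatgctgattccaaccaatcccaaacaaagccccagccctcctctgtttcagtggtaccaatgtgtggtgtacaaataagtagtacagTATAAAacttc

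The motifs searched on both strands of the 300-base windows were the SMAD palindrome GTCTAGAC, the GC-rich SMAD site GGCGCC, the SMAD box CAGAC, the BMP response element (a GC-rich site, 5 bases and GTCT), the cyclic AMP response element TGACGTCA, the AP-1 site TGANTCA, the E-box CACGTG and the TATA box TATAAA. The ID1 window held a TATA box at positions -31 to -26 from the start site, which overlaps a match on the other strand at -33 to -28. The ID3 window held 1 SMAD box at -147 to -143, and that of INHBA a TATA box at -11 to -6 and a SMAD box at 27 to 31, past the stretch printed. ID4 had a SMAD box at -205 to -201 and a TATA box at -29 to -24, and ID2 had no match. BMP4, the gene called lower, had 3 windows with 3 SMAD boxes, 2 GC-rich SMAD sites and 1 E-box among them. The number of matches grows with the number of windows searched, so the genes cannot be ranked by it. SMAD7 also had 3 windows, with 3 SMAD boxes and 1 TATA box, and SMAD6 had 1 SMAD palindrome. A SMAD box was present in 45.3% of all 35116 promoter windows, a GC-rich SMAD site in 19.2% and a TATA box in 11.5%, so these matches were common. The SMAD palindrome was present in 0.202%. In the exact letters searched, the BMP response element was in none of the 12 windows and in 0.103% of all windows.

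SMAD7 (ENSG00000101665.10, chr18:48919853-48950965, minus strand) rose most evenly of all. It had 46.61 and 46.13 CPM in the control samples and 277.7, 269.3 and 286.5 CPM in acidosis. The samples of each group lay close together and the groups far apart, giving a log2 fold change of 2.58 (95% interval 2.42 to 2.75, adjusted p = 8.31e-09 by edgeR), or 5.99-fold. Its paralog SMAD6 (ENSG00000137834.15, chr15:66702236-66782849, plus strand) had 11.06 and 9.97 CPM in the control samples and 15.68, 10.83 and 11.78 CPM in acidosis. These samples overlapped, and the log2 fold change was 0.29 (95% interval -0.12 to 0.7, adjusted p = 0.189 by edgeR). With total count only it was -0.29 (adjusted p = 0.18), so no direction is given for SMAD6.

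The log2 ratio of SMAD7 to SMAD6 counts was 2.07 and 2.21 in the control samples and 4.15, 4.63 and 4.6 in acidosis. The 2 groups did not overlap, and the difference of the means was 2.32 (exact two-sided permutation p = 0.1, the smallest possible). Per kilobase, SMAD6 held 16.5% ± 0.908 (SD, n = 2) of the 2 inhibitory SMADs in the control and 3.85% ± 0.732 (n = 3) in acidosis.

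Of the 10 genes, only these inhibitory SMADs held the SMAD palindrome within 2000 bases before and 500 bases after the start of the canonical transcript, a window chosen after the narrower one had been searched. Among all 19976 genes with such a window, 284 (1.42%) held it. The sites are printed 5′ to 3′ on each gene's strand, which is minus for SMAD7, with the palindrome in capitals. They are shown since they are shared by the gene that rose and the gene that did not pass the test. The SMAD6 site begins at -12 from the start and is printed as chr15:66702213-66702242, and that of SMAD7 begins at -1260 and is printed as chr18:48952207-48952236.

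SMAD6 site: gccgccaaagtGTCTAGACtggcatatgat

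SMAD7 site: agcgacagggtGTCTAGACggccacgtgac

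In the exact letters searched, the BMP response element was in no such window of the 10 genes and in 0.636% of all windows. Variants of its letters or spacing were not searched, so its absence in other forms is not shown. These matches describe letters in the reference, not binding in these cells.

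Per kilobase of canonical transcript, the order of levels in the control was ID2 (35.1 ± 4.88 CPM per kilobase, SD, n = 2), ID4 (33.8 ± 3.73), SMAD7 (13.9 ± 0.103), ID3 (10 ± 0.924), BMP7 (6.04 ± 0.00213), BMP2 (4.58 ± 0.403), BMP4 (3.98 ± 0.279), SMAD6 (2.75 ± 0.201), ID1 (1.14 ± 0.0464) and INHBA (0.224 ± 0.0374). The neighbours ID2 and ID4 did not differ beyond their spread, and they exchanged places when the longest transcript was used. In acidosis SMAD7 came first (83.2 ± 2.58, n = 3), ahead of ID4 (68.1 ± 3.45), ID3 (62.3 ± 9.16), ID2 (55.9 ± 2.15), BMP2 (9.04 ± 0.775), BMP7 (6.43 ± 0.498), ID1 (5.83 ± 1.09), INHBA (5.43 ± 0.618), SMAD6 (3.33 ± 0.671) and BMP4 (0.398 ± 0.0411). Within each of the sets ID4, ID3 and ID2, and BMP7, ID1 and INHBA, neighbours lay within about their spread. BMP4 thus went from the middle of the order to its end, and INHBA left the last place.

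With SRPIN340, none of the 10 genes was called by edgeR, where 0.128% of all tested genes were called higher and 0.195% lower. The adjusted p alone was passed by 1 of 10 genes and by 2.3% of all tested genes. At an unadjusted p under 0.05 there were 2 of 10 genes, SMAD7 and ID4, beside 17.6% of all tested genes, and DESeq2 called 0 with the fold limit. The median log2 fold change was 0.0733 over the 10 genes and 0.0024 over all genes tested. This comparison shares its control samples with that of acidosis.

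SMAD7 was the gene that passed, and in the direction opposite to acidosis. It had 34.72 and 36.4 CPM with SRPIN340, below both control samples, a log2 fold change of -0.38 (95% interval -0.55 to -0.21, adjusted p = 0.0384 by edgeR) or 1.3-fold. The adjusted p depended on the settings: it was 0.00108 with DESeq2, and without 1 control or SRPIN340 sample it lay between 0.149 and 0.29. It was also over 0.05 without acidosis replicate 1 (0.0602) or 3 (0.0543), and 0.122 with a replicate block. The log2 ratio of SMAD7 to SMAD6 counts was 1.61 and 1.75 with SRPIN340, below both control values (exact permutation p = 0.333, the smallest that 2 samples against 2 allow).

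ID4 had 156.3 and 162.4 CPM with SRPIN340, above both control samples, with a log2 fold change of 0.29 (95% interval 0.08 to 0.49) and an adjusted p of 0.14 by edgeR. ID2 had 50.24 and 53.03 CPM, also above the controls but with a log2 fold change of 0.18 (95% interval -0.07 to 0.43, adjusted p = 0.459). ID3 had 10.65 and 8.43 CPM and ID1 1.18 and 1.1 CPM, with log2 fold changes of 0.01 (95% interval -0.4 to 0.41) and 0.03 (-0.76 to 0.81). At 28.8 to 32.3 estimated counts of ID1 per library, a change within that wide interval was not detectable.

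The ligands showed no change that passed the test with SRPIN340. BMP2 stood at 16.66 and 17.39 CPM, BMP4 at 9.36 and 6.99 CPM, BMP7 at 24.4 and 26.69 CPM (also above the controls) and INHBA at 1.77 and 1.41 CPM. Their log2 fold changes were 0.07 (95% interval -0.24 to 0.38), 0.09 (-0.42 to 0.59), 0.07 (-0.21 to 0.35) and 0.23 (-0.32 to 0.78), with adjusted p from 0.691 to 0.89 by edgeR. SMAD6 had 11.35 and 10.78 CPM, a log2 fold change of 0.07 (-0.37 to 0.51) and an adjusted p of 0.893.

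**Figure D3:**
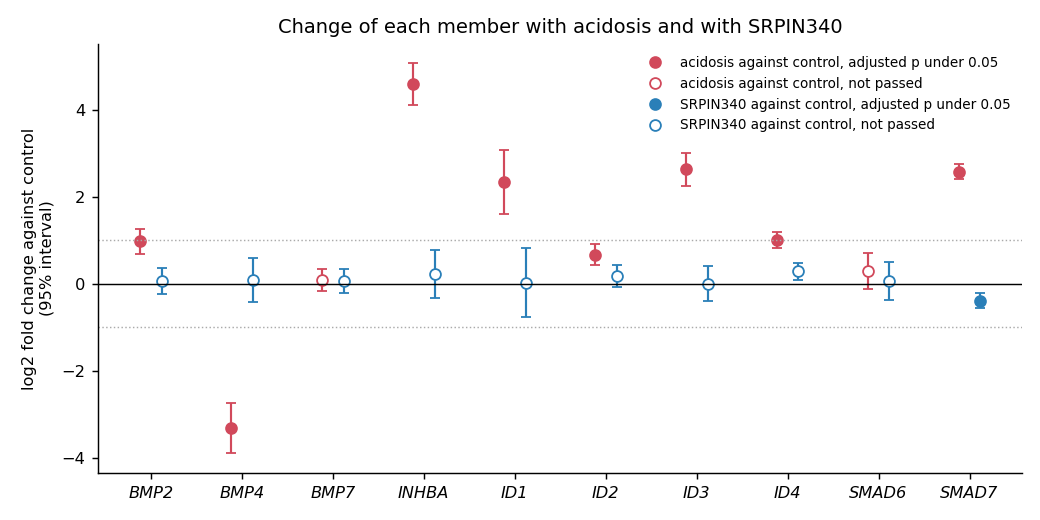
Log2 fold change of the 10 genes in acidosis (red) and with SRPIN340 (blue), each against the 2 control samples, from edgeR, with 95% intervals. Filled points passed the adjusted p, dotted lines mark the fold limit, and SMAD7 is the gene with filled points on opposite sides of 0.

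Set directly against SRPIN340, acidosis differed in the same genes except ID4. The difference was called for INHBA (log2 4.37, 20.6-fold), SMAD7 (2.97, 7.81-fold), ID3 (2.63, 6.2-fold) and ID1 (2.32, 4.99-fold), all higher in acidosis, and for BMP4 (-3.41, 10.6-fold lower), with adjusted p from 5.06e-09 to 0.000146 by edgeR. Of all tested genes 14.9% were called higher and 19.7% lower. BMP2 (0.91, adjusted p = 0.000144), ID4 (0.73, adjusted p = 3.72e-05) and ID2 (0.49, adjusted p = 0.00199) passed the adjusted p under the fold limit. BMP7 (0.02, 95% interval -0.24 to 0.28) and SMAD6 (0.21, 95% interval -0.2 to 0.63) did not pass it. The median over the 10 genes was 0.818.

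The rest of the pathway was read from a list of 109 other genes sorted by role, of which 91 passed the filter. This list too was chosen with earlier results of these data known, so its counts are a description. In acidosis 24 of the 91 were called higher (26.4%) and 17 lower (18.7%), beside the 14.4% and 19.1% of all tested genes. With total count only the split was 15 higher and 28 lower, but the background moved too. Of all 14863 tested genes, 815 were then called higher and 5202 lower. The median log2 fold change of the list was 0.426. The counts by role given below stand beside the same 14.4% higher and 19.1% lower of all tested genes under TMM.

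**Figure D4:**
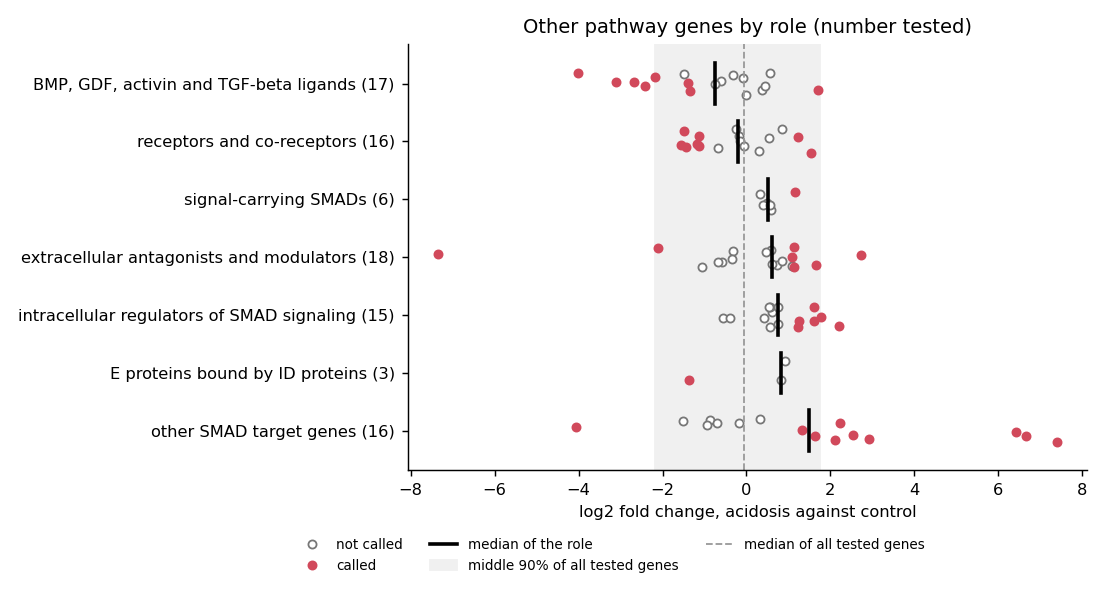
Log2 fold change in acidosis against control of the 91 other pathway genes by role, 1 point per gene, with the median of each role as a bar. Lower calls gather among ligands and receptors and higher calls among intracellular regulators and SMAD target genes; the point near -7 is SOSTDC1, which was at 0 in acidosis and whose fitted value depends on the prior count.

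Of the other ligands, 7 of 17 tested were called lower (41.2%) and 1 higher (5.88%). Those 7 include BMP8A and BMP8B, near-identical copies between which reads could be split, so their separate values are uncertain. BMP3, a BMP that opposes bone formation, had 20.08 ± 2.278 CPM (SD, n = 2) in the control and 1.253 ± 0.43 CPM (n = 3) in acidosis, a log2 fold change of -4.02 (adjusted p = 3.11e-07 by edgeR). GDF6 went from 3.198 to 0.3902 CPM (-3.11, adjusted p = 0.000294) and INHBE, which encodes an activin chain of the liver, from 1.72 to 0.2855 CPM (-2.68, adjusted p = 0.00288). Both rested on few estimated counts in acidosis, 2.8, 7.7 and 2.9 for GDF6 and 0.9, 4.5 and 4.5 for INHBE. Without acidosis replicate 2 the log2 fold change of GDF6 was -3.88, and without acidosis replicate 1 that of INHBE was -2.09. TGFB2, encoding a TGF-beta, was the ligand called higher, at 6.562 and 21.31 CPM (1.7, adjusted p = 1.51e-05).

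Among receptors and co-receptors, 6 of 16 tested were called lower (37.5%) and 2 higher (12.5%, close to the share of all genes). The type I BMP receptor gene BMPR1A had 63.7 ± 1.869 CPM in the control and 21.92 ± 3.613 CPM in acidosis (-1.55, adjusted p = 4.67e-06 by edgeR). BMPR1B, a further type I receptor, had 14.64 and 6.675 CPM (-1.12, adjusted p = 0.000208), and the type II receptor BMPR2 127.3 ± 17.61 and 57.99 ± 6.474 CPM (-1.13, adjusted p = 1.43e-05). The BMP co-receptor RGMA went from 23.83 to 8.502 CPM (-1.49, adjusted p = 7.95e-06). ACVR1, also a type I receptor for BMPs, did not pass, at 31.29 and 26.47 CPM (-0.24, adjusted p = 0.0989). ACVR2A, a type II receptor that serves activins and BMPs, was called higher, at 17 and 39.86 CPM (1.23, adjusted p = 0.000327), and its relative ACVR2B rose under the fold limit (0.29, adjusted p = 0.0384). The second receptor called higher was the activin type I receptor ACVR1B, at 53.21 ± 1.944 and 155.1 ± 5.886 CPM (1.54, adjusted p = 2.21e-07). The remaining receptors of the activin and TGF-beta branch differed among themselves. ACVR1C stood at -0.18 (adjusted p = 0.479), TGFBR1 at -0.14 (adjusted p = 0.284) and TGFBR2 lower at -0.68 (adjusted p = 0.0072). The TGF-beta co-receptor TGFBR3 rose under the fold limit, at 22.76 and 40.94 CPM (0.85, adjusted p = 0.000165).

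Of the 6 signal-carrying SMADs, SMAD2, which serves activin and TGF-beta, was called higher, at 140.6 and 312.6 CPM (1.15, adjusted p = 8.1e-07 by edgeR). SMAD1, SMAD4 and SMAD5 passed the adjusted p at log2 fold changes of 0.59, 0.32 and 0.41. SMAD3 (0.49, adjusted p = 0.0133) and SMAD9 (0.55, adjusted p = 0.0142) also passed it under the fold limit. With total count only SMAD1, SMAD4 and SMAD5 were at 0.01, -0.25 and -0.17, so the direction of SMAD4 and SMAD5 depended on the scaling. Without control replicate 2 the adjusted p of SMAD1 was 0.0561.

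The extracellular antagonists and modulators had 5 of 18 tested called higher (27.8%) and 2 lower (11.1%, under the 19.1% of all genes). FSTL3, which binds activins, went from 4.14 ± 0.3015 to 27.49 ± 3.785 CPM (2.73, adjusted p = 7.65e-07 by edgeR). BMPER, a modulator of BMPs, went from 2.376 to 0.53 CPM (-2.11, adjusted p = 0.0132), a call lost without control replicate 2 (adjusted p = 0.0799). SOSTDC1, a BMP and WNT antagonist, had 26.3 and 27.3 estimated counts in the control samples and 0 in all 3 acidosis samples. Set against a floor of 3 counts per library, it was at least 3.97-fold lower.

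All 15 intracellular regulators passed the filter, with 6 called higher (40%) and 0 lower by edgeR. The other 9 passed the adjusted p under the fold limit, 7 of them higher and 2 lower, SMURF2 (-0.57, adjusted p = 0.00132) and ZFYVE9 (-0.39, adjusted p = 0.0096). The largest rises were those of PMEPA1, an inducible inhibitor of TGF-beta signaling (15.33 ± 1.035 and 70.62 ± 4.147 CPM, 2.2, adjusted p = 1.91e-07), TGIF2, a repressor of SMAD2 and SMAD3 targets (30.75 and 105.6 CPM, 1.78, adjusted p = 1.49e-06), and NEDD4L, a ubiquitin ligase for SMADs (97.71 and 299 CPM, 1.61, adjusted p = 1.24e-07).

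The partners of the ID proteins did not move as 1 group. Of the 3 E protein genes, TCF4 was called lower, at 97.96 ± 5.336 CPM (SD, n = 2) in the control and 37.88 ± 6.747 CPM (n = 3) in acidosis (-1.37, adjusted p = 1.12e-05 by edgeR). TCF3 (112.9 and 199.9 CPM, 0.82, adjusted p = 3.4e-06) and TCF12 (61.46 and 116.7 CPM, 0.93, adjusted p = 4.82e-05) rose under the fold limit. The summed level of the 4 ID genes per kilobase over that of the 3 E protein genes was 1.86 and 1.61 in the control samples, 2.24 and 2.15 in the SRPIN340 samples and 2.82, 2.82 and 3.09 in the acidosis samples. The 3 conditions did not overlap in this ratio of RNA levels, which was not tested and says nothing of protein. With 2 SRPIN340 and 2 control samples, an exact permutation test can give no p under 0.333. No ID or E protein gene passed the adjusted p with SRPIN340 by edgeR.

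Other SMAD target genes had 9 of 16 called higher (56.2%) and 1 lower (6.25%), with a median log2 fold change of 1.48. Of all tested genes, 14.4% were called higher and 19.1% lower. The widest were CCN2, a matricellular protein gene (6.062 CPM in the control and 1018 ± 42.39 CPM in acidosis, 7.39, adjusted p = 4.31e-10 by edgeR), GADD45B, a stress-inducible gene (12.52 and 1267 ± 17.57 CPM, 6.66, adjusted p = 5.55e-11), and JUNB, a subunit of AP-1 (6.556 and 566.2 ± 69.26 CPM, 6.43, adjusted p = 1.5e-09). These 3 genes are also induced by many stimuli outside the pathway. ATOH8, a BMP target of endothelium and liver, was the one called lower (adjusted p = 0.00213). It had 78.7 and 73.4 estimated counts in the control samples and 0, 0.5 and 5.9 in acidosis, too few to size the fold. The 3 target genes that passed the adjusted p under the fold limit were all lower in acidosis. They were HEY1 (-0.87, adjusted p = 5.8e-05 by edgeR), MSX1 (-0.71, adjusted p = 0.00163) and DLX5 (-0.94, adjusted p = 0.0156).

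With SRPIN340, 1 of the 91 pathway genes was called, higher, and the median log2 fold change was 0.105. This was GREM1, a secreted BMP antagonist, at 6.52 and 5.476 CPM in the control samples and 12.97 and 12.57 CPM with SRPIN340 (1.09, 2.13-fold, adjusted p = 0.0278 by edgeR). The groups did not overlap. The call was lost without any 1 of these 4 samples (adjusted p 0.102 to 0.218), and DESeq2 gave the gene no adjusted p. In acidosis GREM1 had 9.561, 7.712 and 10.06 CPM (0.61, adjusted p = 0.0137), which did not pass without control replicate 2 (adjusted p = 0.118) or with total count only (0.03, adjusted p = 0.884).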

How the data were processed

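Poly(A)-selected RNA of 7 HEK-293 samples was sequenced on a NextSeq 1000. According to the labels and methods, reads were trimmed (the submitters' processing notes name Trim Galore 0.6.6 and Trimmomatic 0.39), quantified with Salmon 1.5.1 against a GRCh38 transcriptome and summed to genes with tximport. The authors deposited estimated counts per gene, with 1 column per sample and no normalization between samples. The tximport option and the use of strand are not given in the sources used here. The methods describe 3 replicates of each biological repeat, whereas the table has 1 column per repeat, so a column may merge replicates. P-values measure the spread between the columns.

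Estimated counts were rounded, filtered with filterByExpr, scaled by TMM and passed to the quasi-likelihood test of edgeR 4.0.16 (R 4.3.3), with 7 samples in 1 fit and with Benjamini-Hochberg adjustment over all 14863 genes tested. A standard error was taken from the log2 fold change and its F statistic, and intervals (95%) from the t distribution of the fit. DESeq2 1.42.0, the study's tool, was an alternative. The script was tested on simulated data. CPM used TMM-scaled totals, and 19977 of 19978 genes matched GENCODE release 44. Per-kilobase levels divide CPM by the canonical transcript length. Promoter windows came from RefSeq (GRCh38.p14), wider windows from GRCh38.

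The genes described and the pathway and marker lists were chosen with earlier results of these data known. Named pathway genes were up to 3 called genes with the widest change in acidosis per role, the E proteins, SMAD1, SMAD4, SMAD5, the BMP receptors and any gene called with SRPIN340. TGFB2, the BMP8 genes, ATOH8, ACVR2A, ACVR2B, ACVR1C, TGFBR1, TGFBR2, TGFBR3, SMURF2 and ZFYVE9 were added after the values were seen. So were SMAD3, SMAD9, HEY1, MSX1, DLX5, the wide windows and within-sample ratios. Same-numbered samples of the groups did not deviate together (correlations of -0.115 to 0.063), so the numbers were not taken as pairs. Alternatives were the tool, scaling (RLE, total count only), filter, samples in the fit, replicate block, fold limit and each replicate left out. Splicing was not analysed here. The result of 1 further marker list is not reported here.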

Additional observations from a re-analysis of the deposited data

How the results depend on the processing

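Of the changes in acidosis against control, 492 of 503 values under the alternatives kept their direction and side of the adjusted p threshold. These values cover the 10 genes and the pathway genes named by rule, many of them named as the widest called changes of their role. The share therefore does not describe how stable other genes were. The choices that mattered were the scaling and the fold limit. With total count only, acidosis called 15 higher and 28 lower pathway genes (24 and 17 with TMM), and against SRPIN340 it called 10 and 31 (22 and 16). Over all genes it called 815 higher and 5202 lower, against 2145 and 2840. It reversed BMP7 (-0.485), SMAD6 (-0.286), SMAD4 (-0.252) and SMAD5 (-0.168) in acidosis against control, and BMP7 (-0.597), SMAD6 (-0.4) and ID2 (-0.121) in acidosis against SRPIN340. There BMP2 (0.296) and ID4 (0.111) no longer passed, and ACVR1 passed in acidosis against control (-0.814). The genes of the 10 called higher in acidosis numbered 4 to 6 with the fold limit. BMP2 was added with DESeq2 and RLE, and ID4 was lost with total count only, without the filter and with only the groups compared.

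Without the fold limit, the pathway list had 47 higher and 26 lower genes in acidosis against control, 39 and 28 in acidosis against SRPIN340, where 7 of the 10 genes were higher, and 1 of the 10 genes (SMAD7) was lower with SRPIN340. Calls over all genes were then 4836 higher and 5081 lower in acidosis, 114 and 228 with SRPIN340, and 4882 and 5202 in acidosis against SRPIN340. With only the groups compared, SRPIN340 called 33 genes higher in place of 19. Without 1 control or SRPIN340 sample it called 3 to 9 higher and 8 to 23 lower (29 with all samples), the lowest lower counts being 8 and 18 without SRPIN340 replicates 1 and 2, and without acidosis replicate 2 it called 30 higher.

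The replicate block left 0 pathway genes called with SRPIN340 and 5 genes higher over all genes, and SMAD7 then had an adjusted p of 0.122 and GREM1 0.0672. It changed no call of the 10 genes in acidosis. DESeq2 also left 0, giving GREM1 no adjusted p, and leaving out a sample gave 0 to 1. The adjusted p of SMAD7 with SRPIN340 ranged from 0.00108 to 0.29 over the alternatives.

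Of the 9 genes that did not pass with SRPIN340, 5 changed sign around 0 and BMP7, INHBA, ID2 and ID4 kept theirs. ID3 stood at -0.00163 (DESeq2), -0.00144 (RLE) and -0.000547 (replicate block). Without 1 sample, the ranges were -0.172 to 0.165 for ID3, -0.0217 to 0.16 for BMP2, -0.138 to 0.283 for BMP4, -0.0243 to 0.0739 for ID1 and -0.00107 to 0.151 for SMAD6. BMP7 in acidosis against SRPIN340 was -0.0141 with no filter, -0.00404 with only the groups compared and -0.0539 to 0.0768 without 1 sample. The cause was not tested.

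With 2 or 3 samples a group, small changes of genes with few counts (ID1 and INHBA at pH 7.4, BMP4 in acidosis) were not measurable.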

Other observations

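For each of the 10 genes, the tested genes with the nearest profile were found by the root mean square difference of log2 CPM, relative to the control mean, over the 7 samples. This is a description, in which acidosis dominates, and says nothing of shared control. Nearest to INHBA were GADD45A (0.0994) and PTGS2 (0.119), nearest to SMAD7 was ADM (0.116), and nearest to BMP4 was DMRTA2 (0.138). The profile of ID1 was nearest to GOLT1B (0.114) and that of ID3 to ENSG00000284946 (0.113). BMP2 lay beside RAP1A (0.0311), ID4 beside GFPT1 (0.0375), ID2 beside CNOT6L (0.0428), BMP7 beside METTL2A (0.0337) and SMAD6 beside TDP1 (0.0765). Among the tested genes of the pathway, searched without this limit on the mean, ID3 and SMAD7 were nearest to each other (0.256), both about 6-fold higher in acidosis.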
